A study of Caenorhabditis elegans with 6 samples.

Results

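The MATH and BATH genes of Caenorhabditis elegans were taken as every gene whose WormBase symbol starts with math- or bath-. There were 92 such genes, 49 math and 43 bath, of 22010 genes measured. RNA came from whole animals at the last larval stage, fed E. coli OP50 at 20°C, with 3 libraries of WT and 3 of pals-25(icb98). The mutant carries a premature stop codon in pals-25 that was recovered in a mutagenesis screen for animals expressing a chil-27 reporter without infection, and both strains carry icbIs4, an integrated transgene with GFP under the chil-27 promoter and mCherry under that of col-12. WT therefore means N2 with icbIs4, and no pathogen was added to either group. A point mutation does not show in counts per transcript, so the labels were not checked by the level of pals-25. Values by library are given below in the order of replicates 1, 2 and 3, and coordinates are those of the WBcel235 assembly. The comparison asks which members of these gene families differ between WT and the strain with the activating pals-25 allele. This allele switches on the oomycete recognition response (ORR) and the intracellular pathogen response (IPR). Any other mutation of the mutant strain cannot be told apart from the allele.

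The MATH (meprin and TRAF homology) domain is a protein-binding fold found in TRAF adaptors, in some ubiquitin-specific proteases and in substrate receptors of ubiquitin ligases. BATH proteins join a MATH domain, which can hold a substrate, to a BTB domain, which can bind the cullin CUL-3, so that the substrate is presented for ubiquitylation. MEL-26, the founding receptor of this kind in C. elegans, directs the katanin MEI-1 to degradation after meiosis. The math class holds genes for MATH proteins that lack the BTB domain. Both classes are expanded in C. elegans, and most members have no described role, so none is given for them here.

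Library totals lay between 40709626 and 47297002 estimated counts. WT replicate 2 stood apart from the other WT libraries, with 2960 and 2658 genes over 2-fold away from WT replicates 1 and 3, which were 280 genes apart. The mutant libraries were 230 to 280 genes apart. Some tissue markers also differed with genotype. The summed level of 9 oocyte markers was 357 to 756 CPM (counts relative to the library total, as scaled by TMM) in WT and 1052 to 1269 CPM in the mutant, that of 9 sperm markers was 175 CPM in WT replicate 2 and 516 to 666 CPM in the other 5 libraries, and that of 9 intestinal markers was 7898 to 8600 CPM against 12830 to 15100 CPM. Of the intestinal list 4 genes rose, namely the yolk protein genes vit-2 (log2 change 2.33) and vit-5 (2.53), asp-1 (0.38) and ifb-2 (0.60), and 5 were not called, among them the intestinal regulator elt-2 (0.01) and cpr-6 (-0.29). The median of that list was 0.15, and its summed level was carried by vit-2, vit-5 and asp-1. Of the oocyte list 1 gene, oma-2, rose, and of the 9 epidermal markers 1, the adult collagen gene col-19, rose by 3.47 while 3 fell. No defining marker of any list was at 0 counts. The part of these differences in the results below was not tested. In whole animals fewer cells of a type and less RNA per cell cannot be told apart. Developmental age within the stage was not tested either, and a difference in it between the groups cannot be told apart from genotype.

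A larger share of the math genes than of all genes was called higher in the mutant. Of 33 math genes with enough counts to test, 14 rose in pals-25(icb98) and 0 fell, which is 42.4% of those tested, against 9.8% of all 16166 genes tested that rose and 10.7% that fell. Of 36 bath genes tested, 2 rose and 0 fell, or 5.56%, and with so few genes nothing is read from the distance between this share and that over all genes. Over all members, tested or not, these are 14 of 49 math and 2 of 43 bath genes, beside 1584 of all 22010 genes. Calls are at an adjusted p under 0.05 from the quasi-likelihood test of edgeR with Benjamini-Hochberg adjustment over all genes. The median log2 change was 0.32 for the math genes and 0.08 for the bath genes, beside 0.01 over all genes tested, and the math median is the same with math-7 set to its bound. Called and over 4-fold higher were 10 math genes and 0 bath genes, against 2.62% of all genes, and over 16-fold higher were 6 and 0, against 1.14%. At the thresholds of the study (a log2 change over 2 at an adjusted p below 0.1 and an unadjusted p below 0.01) the same 10 and 0 were counted higher, and 0 members lower against 0.421% of all genes. These counts describe the families, and no test was made between them. Of the called genes, math-7, math-9, math-23, math-28 and math-30 had at most 9 counts over the WT libraries together. They had enough counts to test only through the mutant libraries, which favors rises, and all were over 4-fold higher. The math shares above are limited by this.

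No member was called lower. At an unadjusted p under 0.05, 5 math and 2 bath genes were lower, together with 19.8% of all genes tested, whereas 16 math and 5 bath genes were higher, together with 16.2%. DESeq2 called 1 math and 2 bath genes lower, and limma-voom called 0 and 1. The shares of all genes that these 2 methods called are not given here. The 3 mutant libraries lay wholly above the 3 WT libraries for 16 tested math and 9 tested bath genes (24.4% of all genes), and wholly below for 6 and 2 (24.8% of all genes). Without WT replicate 2, 20 math and 3 bath genes were called higher, all 16 of the members above among them, and 4 math and 2 bath genes lower, with 19.3% of all genes higher and 18.1% lower.

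**Figure D1:**
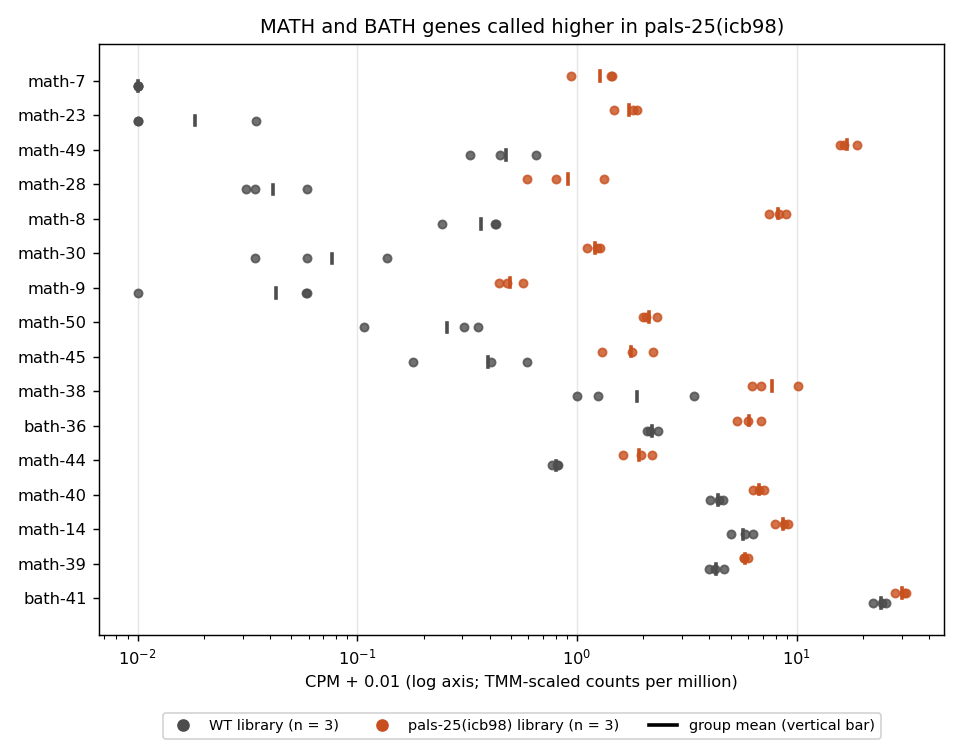
Level of each of the 16 MATH and BATH genes called higher, in CPM plus 0.01 on a log axis. Each dot is 1 library (3 WT, grey, and 3 pals-25(icb98), orange), and vertical bars are group means. In all 16 genes the mutant dots lie to the right of every WT dot, most widely for math-7, which had 0 counts in WT, and least for bath-41.

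Among the called members, math-49 and math-8 of chromosome II gained most in mean CPM, from a WT level under 1 CPM in every library. math-49 (ZK250.7, chromosome II 1953587 to 1955668) had levels of 0.316, 0.436 and 0.640 CPM in WT, and of 16.4, 18.8 and 15.6 CPM in pals-25(icb98). Each mutant library thus exceeded each WT library more than 20-fold, and the fitted log2 change was 5.20 (SE 0.26, edgeR adjusted p = 0.000143). math-8 (C16C4.13, II 1887209 to 1889171) went from 0.232, 0.412 and 0.418 CPM to 8.30, 8.87 and 7.44 CPM. Its groups were also wide apart, and the fitted log2 change came to 4.54 (SE 0.24, edgeR adjusted p = 0.000185). Both genes kept their calls whichever library was left out, with adjusted p of at most 0.00310.

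A further 5 math genes had at most 9 estimated counts over the 3 WT libraries together. math-7 (C16C4.12, II 1885439 to 1886479) had 0 counts in every WT library against 40, 63 and 63 in pals-25(icb98), which makes it at least 54.3-fold higher against a floor of 3 counts over the WT group (edgeR adjusted p = 0.00485). math-23 (C46F9.2, II 1902281 to 1904446) had 0, 0 and 1 counts in the WT libraries against 63, 83 and 79 in pals-25(icb98), a ratio of 221 with an exact 95% counting interval of 39.3 to 8766 (edgeR adjusted p = 0.000657). The interval covers counting error only. The floor allows for it in WT alone, with the mutant counts taken as exact, so the fold set by it is no full lower limit. In both genes WT was essentially silent and the mutant libraries agreed closely among themselves.

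math-28 (F36H5.3, II 1763372 to 1766555) had 1, 1 and 2 counts in the WT libraries against 34, 26 and 58 in pals-25(icb98) (log2 change 4.73, SE 0.55, edgeR adjusted p = 0.00415). Its mutant libraries were the most scattered of this group, yet the lowest of them was far above the highest of WT. math-30 (F52C6.5, II 1908161 to 1909735), which RefSeq annotates as a pseudogene, had 6, 1 and 2 counts against 54, 49 and 54 (log2 change 4.06, SE 0.43, edgeR adjusted p = 0.00300). math-9 (C16C4.14, II 1889909 to 1890782) had 0, 2 and 2 counts against 24, 21 and 19 (3.85, SE 0.59, edgeR adjusted p = 0.00969). The call of math-9 was lost without pals-25(icb98) replicate 1 (edgeR adjusted p = 0.0508), and those of the other 4 genes held in all 6 fits with 1 library left out, with adjusted p of at most 0.0332.

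A further 2 math genes with at least 4 counts in each WT library kept their calls whichever library was left out. math-50 (ZK250.8, II 1956050 to 1957890), a second pseudogene by RefSeq, lies beside math-49 and had 0.295, 0.0969 and 0.344 CPM in WT and 2.05, 2.31 and 1.99 CPM in the mutant (log2 change 3.09, SE 0.38, edgeR adjusted p = 0.00482). math-44 (Y16E11A.1, II 1989310 to 1990535) went from 0.759, 0.800 and 0.812 CPM to 1.61, 1.95 and 2.17 CPM (1.27, SE 0.18, edgeR adjusted p = 0.00822). The WT libraries of math-44 were nearly equal, whereas those of math-50 were spread.

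math-45 and math-38 rose by over 4-fold, but their calls held in only 2 and 1 of the 6 fits with 1 library left out. math-45 (Y51H7BM.1, II 1510287 to 1517454) was at 0.169, 0.581 and 0.394 CPM in WT and 2.21, 1.77 and 1.29 CPM in the mutant (log2 change 2.21, SE 0.44, edgeR adjusted p = 0.0214). math-38 (T07H3.3, II 1577378 to 1579986) was at 0.991, 3.39 and 1.23 CPM and at 10.1, 6.83 and 6.24 CPM (2.05, SE 0.50, edgeR adjusted p = 0.0390). In both, WT replicate 2 was the highest WT library. The call of math-45 did not hold when WT replicate 3 or any 1 mutant library was left out, with adjusted p of up to 0.0924, and that of math-38 without any 1 library except WT replicate 2, with adjusted p of up to 0.137. Without WT replicate 2 the log2 changes were 2.67 and 2.80.

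Smaller rises were called in 3 math genes that WT expressed at 4.52 to 5.46 TPM (a level corrected for transcript length). math-40 (T08E11.3, II 1830632 to 1831803) had 219, 165 and 180 counts in the WT libraries against 271, 317 and 297 in pals-25(icb98) (log2 change 0.63, SE 0.12, edgeR adjusted p = 0.0184). Its neighbor math-39 (T08E11.2, II 1832338 to 1833522) went from 3.96, 4.65 and 4.23 CPM to 5.71, 5.96 and 5.75 CPM (0.44, SE 0.12, edgeR adjusted p = 0.0473). math-14 (C16C4.4, II 1869420 to 1870805) went from 5.82, 6.30 and 4.99 CPM to 7.97, 9.10 and 8.71 CPM (0.59, SE 0.13, edgeR adjusted p = 0.0285). The groups did not overlap in any of the 3, but their calls rest on the full set of libraries. That of math-40 did not hold when WT replicate 3 or any 1 mutant library was left out (adjusted p up to 0.0783), and those of math-39 and math-14 were lost without any 1 library except WT replicate 2 (adjusted p up to 0.149 and 0.106).

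Of the 2 bath genes called, only bath-36 kept its call whichever library was left out. bath-36 (Y75B12B.4, chromosome V 15187888 to 15189588) had 2.07, 2.33 and 2.14 CPM in WT and 5.99, 6.83 and 5.32 CPM in pals-25(icb98), a 2.78-fold difference (log2 change 1.47, SE 0.15, edgeR adjusted p = 0.00242). No mutant library overlapped WT, and the adjusted p stayed at or below 0.0216 in the fits with 1 library left out. bath-41 (F37A4.9, III 6720415 to 6722258) went from 25.5, 22.2 and 24.4 CPM to 30.6, 27.9 and 31.4 CPM, 1.25-fold (0.32, SE 0.08, edgeR adjusted p = 0.0404). This call was lost without any 1 library except WT replicate 2, with adjusted p of up to 0.141. bath-41 shares 89 bases with bus-22 on the opposite strand, which fell by 1.28 on the log2 scale, and reads of overlapping genes cannot be told apart where the strand setting is not given. No other called member overlapped an annotated gene.

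**Figure D2:**
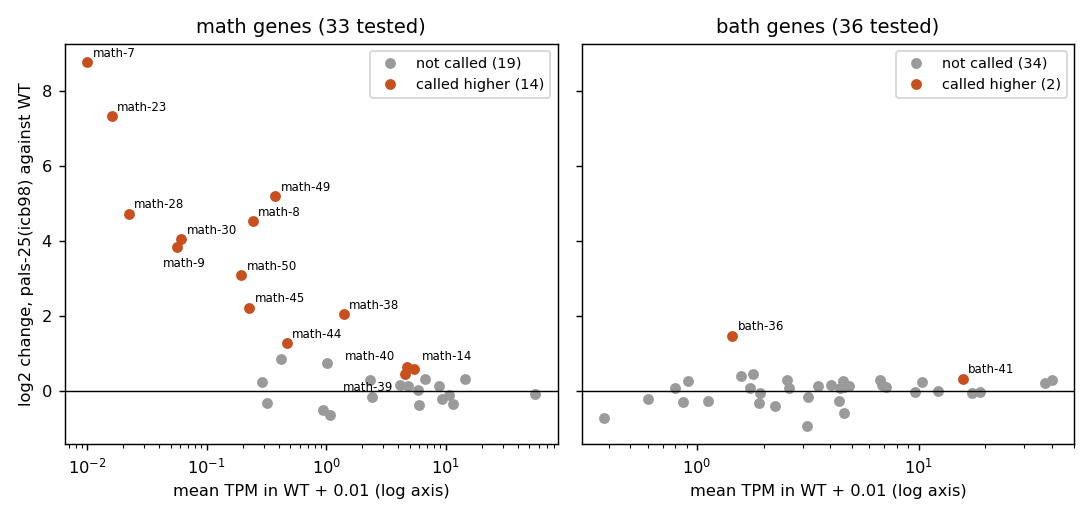
Log2 change in pals-25(icb98) against mean WT level in TPM plus 0.01 (log axis) for the 33 math and 36 bath genes tested. Orange dots are genes called higher and grey dots are not called. The largest math changes are in genes below 1 TPM in WT, and bath-36 stands above the other bath genes. The fitted value of math-7, at 0 counts in WT, depends on the prior count of the fit.

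The math genes that rose were mostly of low level in WT. Of the 14, 10 had a WT mean under 1 TPM, and their median was 0.225 TPM in WT and 1.61 TPM in the mutant. The 19 math genes tested but not called had a median of 4.81 TPM in WT and 4.55 TPM in the mutant. A gene silent in WT enters the test only if the mutant libraries have enough counts, so the low end of this range favors rises. The 33 math genes tested had a WT median of 1.40 TPM, with 14 under 1 TPM. All 16166 genes tested had a WT median of 9.74 TPM, with 2053 under 1 TPM. The part of this difference in level in the share of math genes called was not tested. The bath genes had a median of 3.76 TPM in WT and 3.71 TPM in the mutant, and of the 36 tested 5 were under 1 TPM in WT.

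Among the members of highest level, the largest was math-33 (H19N07.2, V 11113907 to 11118824), which encodes the homolog of the deubiquitinating enzyme USP7. Its level was 257, 250 and 266 CPM in WT and 243, 241 and 240 CPM in the mutant, or 56.1 ± 1.13 TPM (SD, n = 3) and 52.1 ± 0.802 TPM. The mutant libraries were all slightly below WT, by -0.10 on the log2 scale (SE 0.04, edgeR adjusted p = 0.150), a difference that passed the threshold only without WT replicate 2 (adjusted p = 0.0491). It shares 59 bases with scb-1 on the opposite strand. The highest bath genes were bath-42 and bath-40, with means of 44.3 and 40.1 TPM over the 6 libraries. bath-42 had 77.9, 59.7 and 74.2 CPM in WT and 85.5, 85.5 and 88.6 CPM in the mutant. bath-40 had 68.5, 53.5 and 68.2 CPM in WT and 76.5, 71.7 and 73.6 CPM in the mutant. WT replicate 2 was the lowest library for both, and neither overlapped between the groups. Neither was called (log2 differences 0.29 and 0.22, edgeR adjusted p = 0.0944 and 0.188), although without WT replicate 2 bath-42 was, at 0.19 (adjusted p = 0.0121).

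bath-44, bath-2, math-20, math-27 and math-22 were also, like bath-41 and math-26, among the 5 math and the 5 bath genes of highest mean TPM. bath-44 was at 18.9 ± 0.578 TPM in WT and 18.1 ± 0.806 TPM in the mutant, and bath-2 at 17.4 ± 2.62 and 16.5 ± 1.17 TPM, differences within the spread between libraries (edgeR adjusted p = 0.654 and 0.753). math-20 (II 1996537 to 1998531) lay just outside the threshold, with 22.4, 18.7 and 20.2 CPM in WT and 24.6, 26.6 and 25.1 CPM in the mutant (log2 difference 0.32, SE 0.09, edgeR adjusted p = 0.0510). It passed without WT replicate 1 (adjusted p = 0.0456), without WT replicate 2 (0.0163), with RLE size factors (0.0442), at a minimum count of 30 (0.0488) and with DESeq2 (0.00643). math-27, a pseudogene by RefSeq, differed by 0.12 (edgeR adjusted p = 0.565; without WT replicate 2, 0.28 and 0.0223) and math-22 by -0.11 (edgeR adjusted p = 0.459).

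Several members were lower in the mutant without passing the threshold. The nearest to it was bath-26, which shares 28 bases with its neighbor bath-46 on the opposite strand. bath-26 (T07H3.6, II 1599461 to 1600761) was at 3.04, 3.80 and 2.83 CPM in WT and 1.21, 2.22 and 1.61 CPM in the mutant (log2 difference -0.94, SE 0.26, edgeR adjusted p = 0.0505). bath-46 (T07H3.2, II 1597906 to 1599488) was at 4.47, 2.98 and 4.90 CPM and at 2.56, 2.80 and 2.83 CPM (-0.59, SE 0.21, edgeR adjusted p = 0.0989). In both, every mutant library was below every WT library, and both passed without WT replicate 2 (adjusted p = 0.0159 and 0.00105) and with DESeq2 (0.00658 and 0.0432). bath-26 also passed with limma-voom (adjusted p = 0.0436) and with the replicate block (0.0498), and bath-46 passed with neither. Both bath-26 and bath-46 lie on T07H3, a stretch of 27.2 kb that also holds math-38, which rose.

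The math genes of this kind were math-21 (log2 difference -0.63), math-42 (-0.50), math-41 (-0.39), math-26 (-0.35) and math-3 (-0.22), with edgeR adjusted p of 0.102, 0.119, 0.0923, 0.0735 and 0.123. Of these, math-21, math-41 and math-26 passed without WT replicate 2 (adjusted p = 0.0355, 0.0443 and 0.0217), and math-41 also with DESeq2 (0.0453). math-26 and math-3 overlap on the same strand over 2858 bases from gene start to gene end, introns included. Whether their transcripts share sequence was not checked, so the division of reads between them is uncertain. On the higher side, math-37 (0.74), bath-19 (0.46) and bath-34 (0.41) had an unadjusted p under 0.05 but edgeR adjusted p of 0.0839, 0.137 and 0.119. Only math-37 passed without WT replicate 2 (0.52, adjusted p = 0.0481), and it also passed with DESeq2 (adjusted p = 0.0226).

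**Figure D3:**
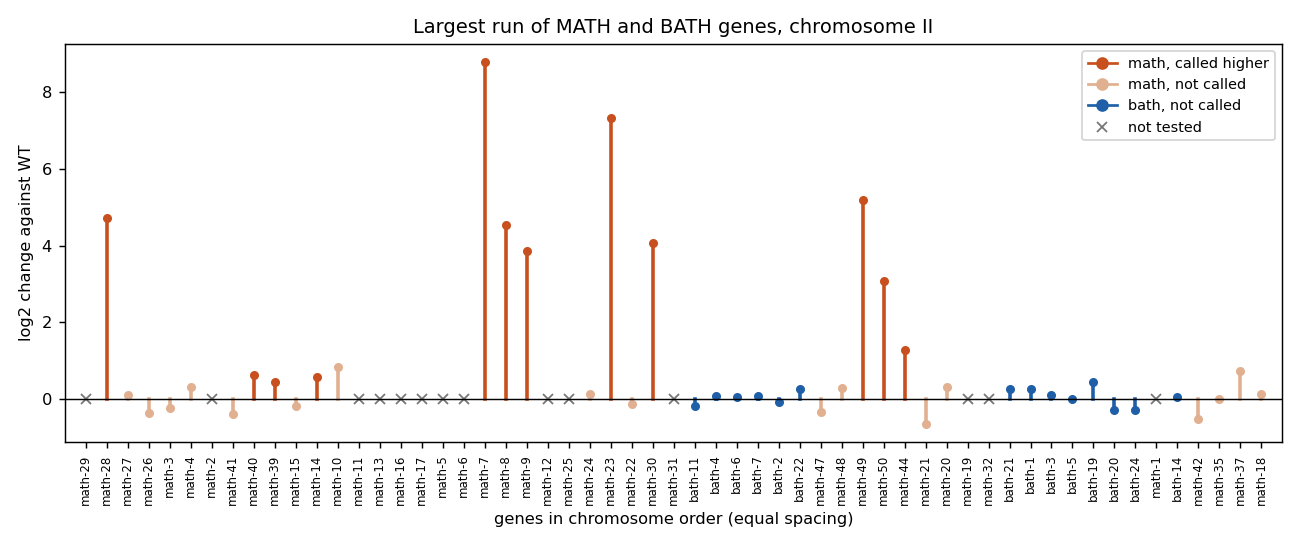
Log2 change of the 57 MATH and BATH genes in the largest run on chromosome II, in chromosome order with equal spacing. Stems are tested genes (orange for math called higher, pale orange for math not called, blue for bath), and crosses mark genes with too few counts to test. Of the 12 rises, math-40 and math-39 are side by side, as are math-7, math-8 and math-9, and math-49, math-50 and math-44. The other rises lie among math genes that did not pass or were not tested. No bath gene of the run was called.

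Most of the families sit together on chromosome II, where 79 of the 92 members lie, 46 math and 33 bath. All 14 math genes that rose are among them, and both bath genes that rose are on other chromosomes. Of the genes tested, 31 math and 27 bath lie on II, and 2 math and 9 bath lie elsewhere. With so few math genes tested elsewhere, no contrast of location is read from this. With a gap of at most 100 kb between neighbors, the largest run spans 448 kb (II 1706709 to 2155220) and holds 43 math and 14 bath genes, of which 43 were tested and 12 rose, all of them math. The run also holds 104 genes of other families, of which 35 were tested, 5 rose and 2 fell. A second run of 6 members (II 1510287 to 1606179) holds math-45 and math-38 with 4 bath genes, and there 2 of 8 other tested genes rose. The remaining 13 members are single or few on chromosomes I, III, IV, V and X.

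Within the large run, called members lay beside members that did not pass, and differences between neighbors were not tested. Of 13 math genes in 25.3 kb of sequence C16C4, 4 rose (math-14 and the adjacent math-7, math-8 and math-9). Of the others, 2 were tested and not called (math-10 and math-15), and 7 had too few counts to test. The log2 difference of math-10 (0.84, SE 0.44) was larger than that of math-14 (0.59, SE 0.13) but less certain. Among the 7 untested, math-5 and math-13 had every mutant library above every WT library. On F52C6 the pseudogene math-30 rose, whereas the 6 bath genes beside it, over a stretch of 20.6 kb, had log2 differences from -0.17 to 0.27 and none was called. On ZK250 math-49 and math-50 rose while math-47 and math-48 of the same clone did not pass. On C46F9 math-23 rose from silence between math-24 and math-22, which did not pass. The protein and transcript sequences were not compared here, so reads that close copies share could not be told apart, and the values of single genes are uncertain to that extent.

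The 23 members left untested, 16 math and 7 bath, had at most 15 counts in any library. Of the 16 math genes 2 had 0 counts in all 6 libraries, and 4 had every mutant library above every WT library in CPM, beside 4.55% of all 5844 untested genes, a pattern not tested. math-13 had 0 counts in each WT library and 3, 8 and 2 in the mutant. math-32, a pseudogene, had 0 and then 4, 5 and 4. Both were at least 4.26-fold higher against the floor of 3 counts, with the mutant counts taken as exact. math-5 had 2, 1 and 0 counts in WT libraries against 8, 10 and 13 in mutant libraries (ratio 10.2, exact 95% counting interval 3.17 to 51.9), and math-19 had 0, 1 and 0 against 7, 3 and 10 (19.6, 3.14 to 814). With no filter on low counts, math-32 and math-5 were called. Among bath genes the reverse pattern, present in 4.07% of all untested genes, occurred once, in bath-9, with 10, 4 and 5 counts against 1, 4 and 0, where the groups meet at 4 counts and are apart only in CPM. The rest with at least 10 counts in all, math-34, math-2, math-12, math-1, math-43, bath-25, bath-23 and bath-10, overlapped between the groups.

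Of the genes in the IPR, ORR and pals-22/25 lists of the study, which were defined on other strains or treatments, 1 was a bath gene. The IPR list holds 4 math genes and 0 bath genes, of which math-38 and math-14 rose, math-10 was not called (log2 difference 0.84, edgeR adjusted p = 0.228, but 1.38 and 0.0185 without WT replicate 2) and math-5 was too low to test. The ORR list holds 5 math genes, and all 5 rose, namely math-49, math-8, math-23, math-38 and math-14, with a median log2 change of 4.54. The pals-22/25 list was drawn up from mutants of this pathway, and the paper describes ORR and IPR genes as falling generally within that set. The counts of list members are thus no independent evidence. Of the other genes tested, 83.8% rose for the IPR list, 74.7% for the ORR list and 76.2% for the pals-22/25 list. The pals-22/25 list, from other mutants, holds 18 math genes and 1 bath gene. Of its 13 tested math genes 8 rose, and its bath gene is bath-36. The members that rose and are in none of the 3 lists are math-7, math-9, math-45, math-50, math-40 and bath-41.

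**Figure D4:**
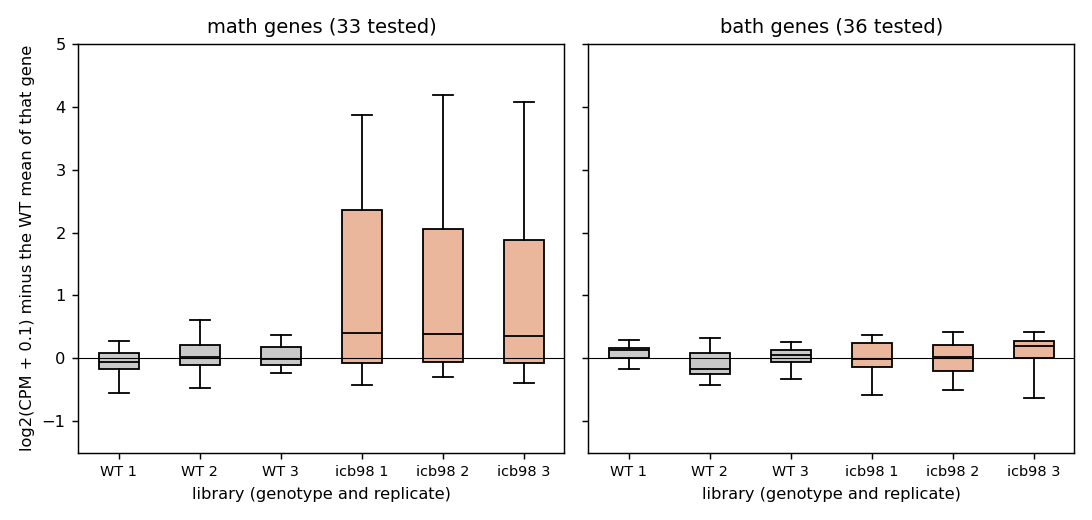
Level of the tested math and bath genes in each library, as log2(CPM + 0.1) minus the WT mean of the same gene. Boxes run from the lower to the upper quartile of the genes with the median as a line, and whiskers run from the 5th to the 95th percentile, with genes beyond them not drawn. The upper part of the math distribution is raised in all 3 mutant libraries, and the bath genes are lowest in WT replicate 2.

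By library, the median math gene stood 0.36 to 0.41 above its WT mean on this log2 scale in the 3 mutant libraries, and -0.06 to 0.02 in the WT libraries. The median bath gene stood at -0.01 to 0.20 in the mutant libraries and at 0.13, -0.17 and 0.06 in WT replicates 1 to 3. The bath medians of the WT libraries thus spanned a range at least as wide as that of the mutant libraries. WT replicate 2 was the lowest of the 6 libraries for 17 of 36 bath genes, and their summed level there was 296 CPM against 343 to 377 CPM in the other 5. The summed level of 9 germline markers was also lowest in WT replicate 2, at 1859 CPM against 2252 to 2424 CPM, and the part of this in the bath values was not tested.

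At the level of transcripts, 19 members had more than 1 annotated transcript, of which 2, math-14 and math-28, were called as genes. math-28 was carried by F36H5.3b, with 1, 0 and 0 counts in WT libraries against 28, 26 and 58 in mutant libraries (edgeR adjusted p over all transcripts = 0.0259). All counts of math-14 were given to C16C4.4b, which did not pass among transcripts (log2 difference 0.60, edgeR adjusted p = 0.0803). math-33 had the most transcripts. Its most abundant, H19N07.2b, had 4820, 3869 and 4764 counts in WT libraries against 2672, 3462 and 2954 in mutant libraries (-0.59, SE 0.12, edgeR adjusted p = 0.0538), and H19N07.2i had 190, 150 and 194 against 313, 270 and 420 (0.89, SE 0.23, edgeR adjusted p = 0.0827). Neither passed, but in both the groups did not overlap while the gene total was nearly level. H19N07.2d ranged from 2 to 1483 counts within the mutant group, which shows how unstable the division among these transcripts was.

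Genes of the machinery that BATH proteins work with rose by less than 1 on the log2 scale where they passed. Of 26 tested genes of the CUL-3 ligase, its BTB and kelch receptors, ubiquitin and the NED8 cycle that activates cullins, 7 rose and 1 fell, against 9.8% and 10.7% of all genes, with a median log2 change of 0.13. cul-3, the scaffold, was at 183, 161 and 182 CPM in WT and 201, 189 and 197 CPM in the mutant and was not called (log2 difference 0.16, SE 0.06, edgeR adjusted p = 0.136). mel-26 went from 33.7, 27.0 and 35.8 CPM to 42.0, 43.4 and 45.6 CPM (0.44, SE 0.11, edgeR adjusted p = 0.0412), with its lowest value again in WT replicate 2. rbx-1, the RING subunit shared by cullin ligases, rose by 0.37 (edgeR adjusted p = 0.00663), and so did dcn-1 (0.50) and ubc-12 (0.50), which attach NED8 to cullins. csn-5, the catalytic subunit of the signalosome that removes NED8, rose by 0.24, the kelch gene kel-20 by 0.55 and the polyubiquitin gene ubq-1 by 0.55, and ubq-2 fell by 0.12 (edgeR adjusted p of these 6 from 0.000961 to 0.0455). Among 8 other cullins and adaptors 1, cul-6, rose (2.27, edgeR adjusted p = 4.60e-05), while cul-1, cul-2, cul-4 and cul-5 had log2 differences from -0.04 to 0.14 and were not called.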

How the data were processed

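The authors quantified reads with kallisto against the WS235 transcriptome of WormBase and deposited estimated counts per transcript, each with its length and effective length. No version or strand setting is given in the sources used here. Estimated counts of 35862 transcripts were summed to 22010 genes by sequence name, 21842 (99.2%) matched to the Ensembl WBcel235 annotation, which gave symbols and coordinates (counted from 1), with pseudogene symbols from RefSeq WBcel235. Sums, rounded to whole numbers, went into edgeR 4.0.16 under R 4.3.3 (TMM, filterByExpr at a minimum count of 10, robust quasi-likelihood F-test, group only). SEs are those implied by F. CPM used TMM-scaled totals, and TPM was computed from estimated counts and effective lengths. Groups and replicate numbers came from the sample names, which call the replicates biological. On simulated counts for this comparison over 16166 genes, 61 of 100 genes changed 2-fold and 96 of 100 changed 4-fold were recovered.

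Alternatives were DESeq2 1.42.0, limma 3.58.1 (voom, and log2(TPM + 1) with a trend), RLE factors, other filters (none, or a minimum of 30), other thresholds, single transcripts, a replicate block and each library left out. Same-numbered libraries were not paired by any label, and their deviations from the group means correlated at 0.0778, 0.247 and 0.129. Named genes were those called, those at an unadjusted p under 0.05, the 5 math and 5 bath genes of highest TPM, math-33, untested members with at least 10 counts, and called pathway genes with cul-3, rbx-1 and mel-26. The members and lists were chosen with earlier results of these data known, and the runs and clones were described after their values were seen. Lists of the study were used for membership only.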

Additional observations from a re-analysis of the deposited data

How the results depend on the processing

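The 14 math and 2 bath genes called higher numbered 9 and 1 with the replicate block, 9 and 1 at an adjusted p under 0.01, 10 and 0 at the thresholds of the study (p under 0.01, adjusted p under 0.1, log2 change over 2), and 8 to 20 and 1 to 3 with 1 library left out. The block rests on numbers that the labels do not tie to a shared source, and WT replicate 1 correlated best with pals-25(icb98) replicate 3, so it is no paired analysis. Members called lower, 0 in the main test, were 1 math and 2 bath genes with DESeq2, 1 bath gene with limma-voom, 1 bath gene with the replicate block, and 0 to 4 math and 0 to 2 bath genes with 1 library left out. Beside these, 9.8% of all genes were higher and 10.7% lower in the main test, and 19.3% and 18.1% without WT replicate 2. At the thresholds of the study the shares were 2.62% and 0.421%. Shares for the other alternatives are not given here, so changes in these counts cannot be told apart from changes over all genes. The median math change of 0.32 was 0.44 with limma-voom, 0.52 with no filter, 0.29 on log2(TPM + 1), 0.42 with the replicate block, and 0.36 to 0.53 with 1 library left out. The median bath change of 0.08 was 0.05 on log2(TPM + 1) and -0.03 to 0.15 with 1 library left out. It was below 0 only without WT replicate 2. Over 34 tested members named, 437 of 508 single alternatives kept direction and call. bath-2 turned from -0.0626 to 0.0605 without WT replicate 1, over a range of -0.174 to 0.0605 with 1 library left out. Single transcripts ran against the sign of their uncalled gene in bath-44 (1.26, 0.0505 and 0.607), math-27 (-0.12 and -0.24), math-3 (0.503, 0.0211 and 0.616) and math-33 (0.0538, 2.33, 0.0683, 0.89, 0.21, 0.60, 2.66, 0.95 and 0.77). The calls of math-38, math-39, math-14 and bath-41 held in 1 of 6 fits with a library left out, and those of math-45 and math-40 in 2 of 6.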
